A study of Mus musculus with 8 samples.

Results

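The ADAMTS metalloproteases are secreted zinc proteases with thrombospondin repeats, and 10 of them were described here in mouse aortic smooth muscle cells treated with jasplakinolide. The genes were Adamts1, Adamts2, Adamts4, Adamts5, Adamts7, Adamts8, Adamts9, Adamts10, Adamts12 and Adamts15. They were listed by name, with earlier results of these data known. Of these 10, 9 had a value among the 19938 genes compared, each from its probe set with the highest mean over the 8 arrays. Adamts2, the procollagen N-proteinase of the set, was not analysed here. The samples were 4 arrays of primary C57Bl6 aortic smooth muscle cells given 100 nM jasplakinolide for 24 h and 4 control arrays of such cells cultured without it. All cultures were at passage 3 to 4 and were kept in DMEM with 10% fetal calf serum. Jasplakinolide is a membrane-permeable compound that stabilises actin filaments. Whether replicates were separate cultures or animals is not stated in the labels, and the p-values therefore reflect only how much these arrays vary, part of which may be technical.

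ADAMTS proteases act outside the cell and around it, each on a limited set of matrix proteins. One branch cleaves the large chondroitin sulfate proteoglycans versican and aggrecan, another trims procollagens, a further branch cleaves cartilage oligomeric matrix protein and thrombospondins, and some members bind fibrillin microfibrils. Their activity is checked by tissue inhibitors of metalloproteinases, chiefly Timp3, and by uptake through the receptor Lrp1. In the artery wall, versican turnover and the migration of smooth muscle cells are the settings in which these enzymes have been studied most.

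Of the 9 genes, Adamts7 rose and the other 8 did not pass the test (limma, adjusted p under 0.05 over all genes). With the replicate number as a block, Adamts7 rose and Adamts1 fell, and the other 7 did not pass. Adamts7 was 1.34-fold higher and Adamts1 was 1.47-fold lower with jasplakinolide. Neither passed without the block when any 1 array was left out, and with the block both passed without pair 2 and missed without pair 1, 3 or 4. Over all genes 0.772% were called without the block (0.436% higher) and 1.89% with it (0.813% higher and 1.08% lower), and the counts of 1 of 9 and 2 of 9 rest on few genes. The block was planned as an alternative fit, and the labels do not say what equal replicate numbers share. Same-numbered arrays deviated together in the values (correlations of 0.24 to 0.56), but so did jasplakinolide 4 and control 2 (0.52). The values therefore do not settle the pairing. In bulk samples fewer cells of a type and less RNA per cell cannot be told apart.

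**Figure D1:**
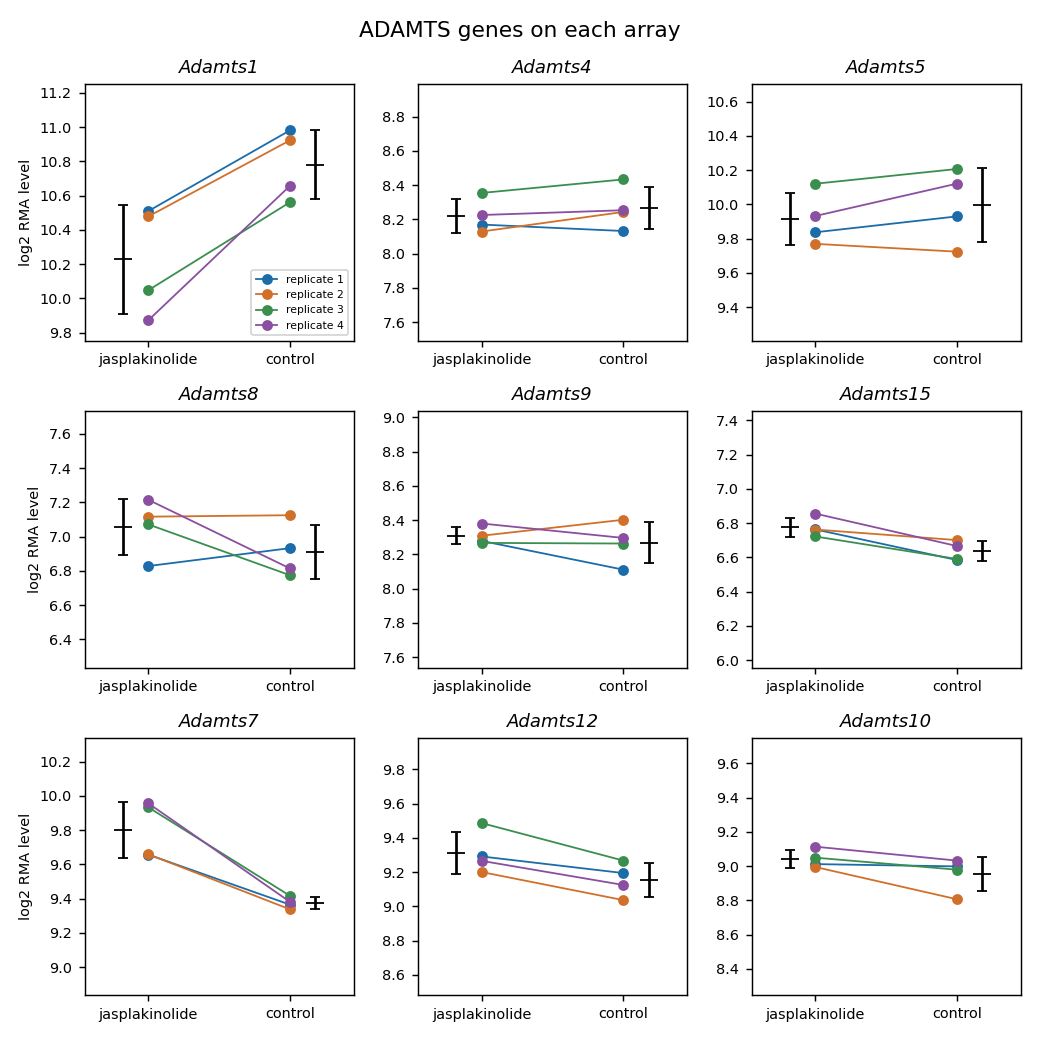
Log2 RMA levels of the 9 ADAMTS genes on each array, jasplakinolide on the left and control on the right of each panel. Points joined by a line share a replicate number, bars are means ± SD (n = 4 each), and every vertical axis spans the same log2 range. Adamts1 lines all run lower with jasplakinolide and Adamts7 lines all run higher, with no overlap between groups in either.

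Adamts1, a protease of versican and aggrecan, was measured at 10.51, 10.48, 10.05 and 9.87 log2 with jasplakinolide (replicates 1 to 4), against 10.98, 10.92, 10.56 and 10.66 log2 in control cultures. The highest treated array lay below the lowest control array, and replicates 1 and 2 were the higher ones in both groups. Adamts1 averaged 10.23 ± 0.32 log2 with jasplakinolide and 10.78 ± 0.20 log2 in control (SD, n = 4 each). The log2 difference was -0.55 ± 0.15 (SE) with a 95% interval from -0.90 to -0.21 (limma, adjusted p = 0.208). Within equal replicate numbers the differences were -0.47, -0.44, -0.51 and -0.78, lower in all 4 pairs. With the replicate block the SE was 0.06 and the interval ran from -0.71 to -0.40 (limma, adjusted p = 0.0240). This call was kept without pair 2 (limma, adjusted p = 0.0326) and missed the threshold without pair 1 (0.103), pair 3 (0.155) or pair 4 (0.0698), each with 2 arrays fewer. With array weights the difference was -0.36 (limma, adjusted p = 0.230). By size, Adamts1 had the 22nd largest fall of the 19938 genes.

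The 250 bases before the start of Adamts1 are shown because this gene had the largest difference of the set. They are from RefSeq on build GRCm38.p6, minus strand, at chr16:85803114-85803363, and 4 of the 10 genes had an entry (Adamts1, Adamts2, Adamts9 and Adamts12). Capitals mark the match to TATAAA, searched on the strand of the gene.

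Adamts1: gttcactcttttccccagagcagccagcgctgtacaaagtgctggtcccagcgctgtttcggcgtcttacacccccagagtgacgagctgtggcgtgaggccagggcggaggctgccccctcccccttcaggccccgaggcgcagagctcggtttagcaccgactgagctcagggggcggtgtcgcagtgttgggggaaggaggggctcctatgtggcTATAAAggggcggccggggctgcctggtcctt

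The TATAAA match begins at base -32 relative to the start, and 7.59% of all 32851 promoter windows of this length hold one on the strand of the gene. None of the 4 windows held a CArG box (the serum response factor motif; 1.47% of all windows), TGANTCA (AP-1; 6.75%), TGACGTCA (CREB; 1.55%) or GGAATG (TEAD; 12.6%), each searched on both strands. The absence of a match says only that these letters are not in these windows.

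The other proteoglycanases of the set did not pass in either fit. Adamts4, an aggrecanase induced by inflammatory signals, was measured at 8.17, 8.13, 8.35 and 8.23 log2 with jasplakinolide, against 8.13, 8.24, 8.43 and 8.25 log2 in control. Adamts5, the main aggrecanase of mouse cartilage, was measured at 9.84, 9.77, 10.12 and 9.93 log2 with jasplakinolide, against 9.93, 9.72, 10.21 and 10.12 log2 in control. The groups overlapped for both genes. Adamts4 differed by -0.05 (95% interval -0.21 to 0.12; limma, adjusted p = 0.946) and Adamts5 by -0.08 (-0.33 to 0.17; limma, adjusted p = 0.932).

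Adamts9, which cleaves versican and is the counterpart of the gonad morphogenesis protease GON-1 of worms, was measured at 8.28, 8.31, 8.27 and 8.38 log2 with jasplakinolide, against 8.11, 8.40, 8.26 and 8.30 log2 in control. It differed by 0.04 (95% interval -0.10 to 0.18; limma, adjusted p = 0.945). It was the only one of the 9 with more than 1 probe set, and the differences of its 6 probe sets lay between -0.09 and 0.04, none past the test over all probe sets. The groups overlapped, and the sign of so small a difference changed when the probe sets were averaged.

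Adamts8, a proteoglycanase first described as an inhibitor of angiogenesis, was measured at 6.83, 7.12, 7.07 and 7.22 log2 with jasplakinolide, against 6.93, 7.13, 6.77 and 6.81 log2 in control. It was lower in pairs 1 and 2 and higher in pairs 3 and 4, with a difference of 0.15 (95% interval -0.07 to 0.37; limma, adjusted p = 0.783). Adamts15, an aggrecanase of the same branch, was measured at 6.76, 6.76, 6.72 and 6.86 log2 with jasplakinolide, against 6.58, 6.70, 6.59 and 6.67 log2 in control. Its groups did not overlap, the lowest treated array being at 6.72 and the highest control array at 6.70, and it differed by 0.14 (95% interval 0.03 to 0.25; limma, adjusted p = 0.360, and 0.168 with the block). Adamts15 lay near the level of dim probe sets. The 95th percentile of 1027 olfactory receptor genes, used as that level, lay between 6.60 and 6.94 log2, and Adamts15 exceeded it on 1 of the 8 arrays, whereas the other 8 genes exceeded it on all 8. Adamts8 was also close to it, at 6.81 against 6.78 log2 on control 4 and 6.83 against 6.73 log2 on jasplakinolide 1. With the olfactory receptor signal as covariate the difference of Adamts8 was 0.08.

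Adamts7 cleaves cartilage oligomeric matrix protein and is known from rodent arteries as a promoter of smooth muscle migration. It was measured at 9.66, 9.66, 9.93 and 9.96 log2 with jasplakinolide, against 9.36, 9.34, 9.42 and 9.38 log2 in control. All treated arrays lay above all control arrays, and the treated ones were more spread, with replicates 3 and 4 the higher. The means were 9.80 ± 0.17 log2 with jasplakinolide and 9.38 ± 0.03 log2 in control (SD, n = 4 each). The log2 difference was 0.43 ± 0.08 (SE) with a 95% interval from 0.25 to 0.60 (limma, adjusted p = 0.0441, and 0.0325 with the block). The pair differences were 0.29, 0.32, 0.52 and 0.58, higher in 4 of 4 pairs. Leaving out any 1 of the 8 arrays kept the difference between 0.37 and 0.47 but put the adjusted p between 0.0611 and 0.153 (limma). With the block, the call was kept without pair 2 (limma, adjusted p = 0.0387) and missed without pair 1 (0.114), pair 3 (0.216) or pair 4 (0.128).

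**Figure D2:**
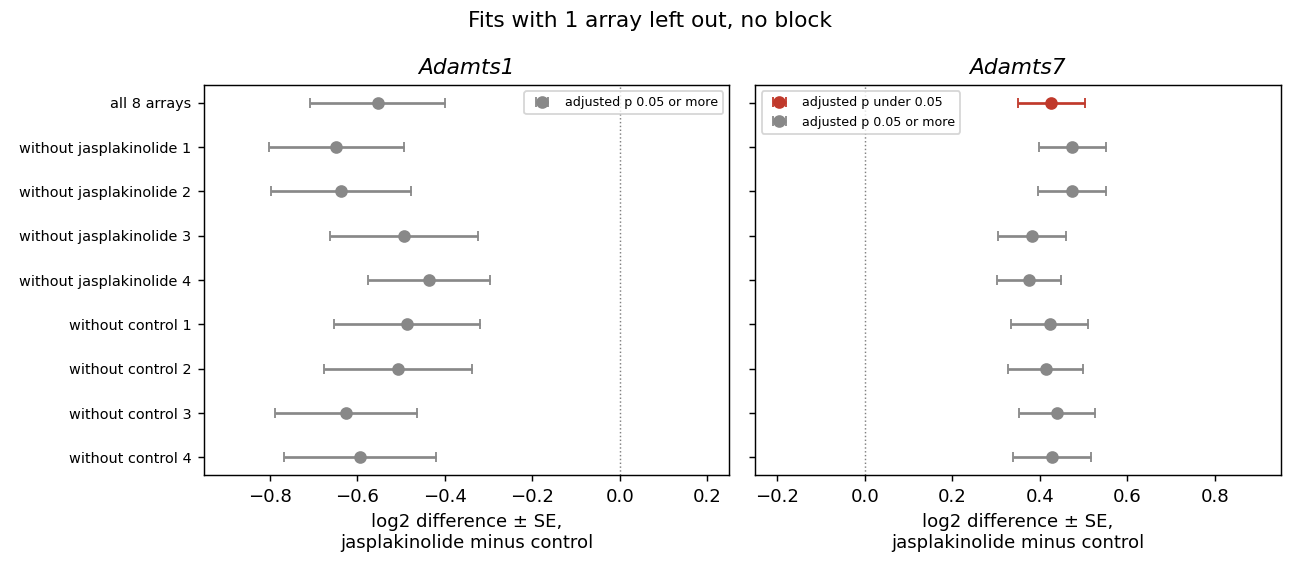
Log2 difference (jasplakinolide minus control, ± SE) of Adamts1 and Adamts7 with all 8 arrays and with each array left out, no block. The difference of Adamts1 stays between -0.65 and -0.44 and that of Adamts7 between 0.37 and 0.47, while only Adamts7 with all 8 arrays is past the threshold.

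Adamts12, the closest relative of Adamts7 and also a protease of cartilage oligomeric matrix protein, was measured at 9.29, 9.20, 9.49 and 9.27 log2 with jasplakinolide, against 9.19, 9.04, 9.27 and 9.13 log2 in control. It was higher in all 4 pairs by 0.10 to 0.22, but the groups overlapped. The difference was 0.16 (95% interval -0.01 to 0.32; limma, adjusted p = 0.597, and 0.127 with the block). Adamts10, which binds fibrillin microfibrils and is mutated in a human disorder of connective tissue, was measured at 9.01, 8.99, 9.05 and 9.11 log2 with jasplakinolide, against 9.00, 8.81, 8.98 and 9.03 log2 in control. Its groups overlapped and it differed by 0.09 (95% interval -0.04 to 0.22; limma, adjusted p = 0.781).

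**Figure D3:**
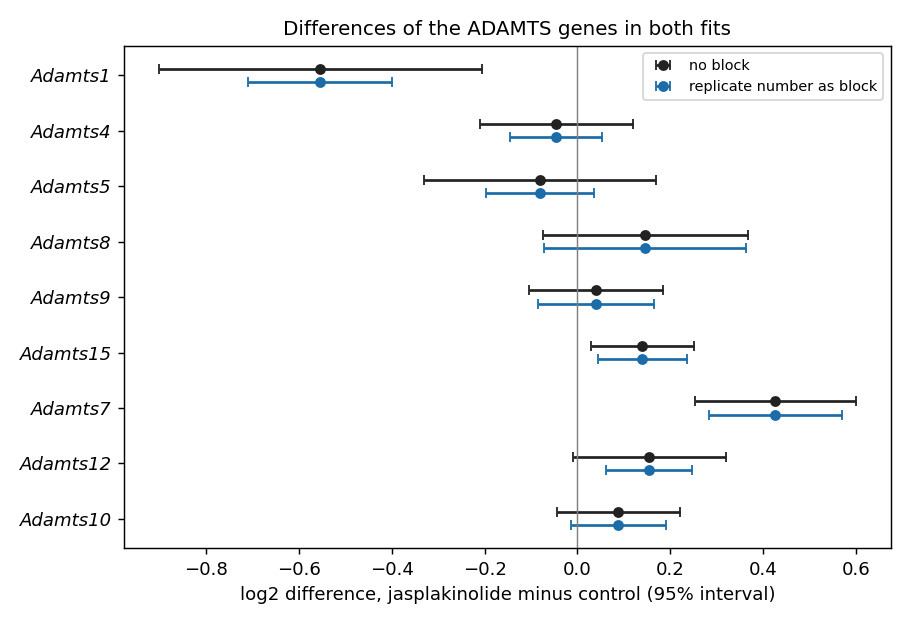
Log2 differences (jasplakinolide minus control) of the 9 genes with 95% intervals, without a block in black and with the replicate number as a block in blue. Intervals of Adamts1, Adamts15 and Adamts7 lie on one side of 0 in both fits, and that of Adamts12 only with the block; these intervals are not adjusted for the number of genes.

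Across the 9 genes, 3 differences were below 0 (33.3%, against 43.6% of all genes) and 6 above. Their median was 0.09, against a median of 0.01 over all genes. Groups did not overlap for 1 gene that was lower (Adamts1) and 2 that were higher (Adamts7 and Adamts15), where 3.29% of all genes did not overlap and were lower and 3.62% did not overlap and were higher. All 4 pairs were higher for 4 genes (Adamts7, Adamts12, Adamts10 and Adamts15; 13.0% of all genes) and lower for Adamts1 (11.5%). With 9 genes, these counts are a description.

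In the reference gene table Adamts1 and Adamts5 are neighbours on chromosome 16 with no protein-coding gene between them, and Adamts8 and Adamts15 are neighbours on chromosome 9 in the same way. The changes within these pairs, and within Adamts7 and Adamts12, were compared on each array, a comparison chosen after their values were seen. The log2 difference of Adamts1 was 0.47 below that of Adamts5 (-0.47), and the two-sided exact permutation p was 0.171 (0.257 adjusted over the 3 pairs). Adamts8 and Adamts15 differed in their change by 0.01 (exact permutation p = 0.914). The change of Adamts7 exceeded that of Adamts12 by 0.27, with no overlap between groups (exact permutation p = 0.0286, the smallest that 4 against 4 arrays allow; 0.0857 adjusted over the 3 pairs). These permutations ran over all splits of the 8 arrays and did not use the pairing. Within pairs, Adamts1 minus Adamts5 was -0.38, -0.49, -0.43 and -0.60, below 0 in all 4, and Adamts7 minus Adamts12 was 0.19, 0.16, 0.30 and 0.43, above 0 in all 4. Adamts8 minus Adamts15 was below 0 in pairs 1 and 2 and above 0 in pairs 3 and 4. Permuting signs within pairs gave an exact p of 0.125 both for Adamts1 with Adamts5 and for Adamts7 with Adamts12, which is the smallest that 4 pairs allow, so this design cannot reach the threshold with them.

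The remaining ADAMTS proteases were all measured, and none of the 9 passed in either fit. Their differences, from 1 probe set per gene, lay between -0.05 and 0.17 with a median of 0.09. Of them 8 were above 0 and 1 below, where 43.6% of all genes were below 0. The largest were those of Adamts6 (0.17 ± 0.09, SE; 7.33 ± 0.17 log2 with jasplakinolide and 7.17 ± 0.13 log2 in control), a relative of Adamts10, Adamts20 (0.12 ± 0.07), a versican protease, Adamts14 (0.12 ± 0.04), a procollagen N-proteinase, and Adamts18 (0.12 ± 0.11). Adamts14 alone among them had groups that did not overlap. Adamts18, Adamts19 and Adamts20 were above the dim level on none of the 8 arrays. Dimmer probe sets of the same genes went beyond the range above, up to 0.19 among the 5 of Adamts17 and down to -0.14 among the 16 of Adamts3. None of these passed over all probe sets. None of the 6 ADAMTS-like genes, which have the ancillary domains without the protease, passed in either fit (median 0.03). Adamtsl3 had the largest difference, -0.17 ± 0.24 (SE), followed by Adamtsl2 (0.07 ± 0.08), Adamtsl4 (0.07 ± 0.12) and Papln (0.04 ± 0.07).

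Of 23 substrates of the family none passed, and with the block Vcan and Dcn fell (1.08% of all genes fell with the block). Their median difference was 0.04. Vcan, which encodes versican, the main proteoglycan substrate of Adamts1 in the artery wall, was measured at 9.43, 9.36, 10.09 and 10.23 log2 with jasplakinolide, against 9.98, 9.97, 10.53 and 10.53 log2 in control. The groups overlapped, since replicates 1 and 2 were the lower ones in both, whereas they were the higher ones for Adamts1. Within pairs Vcan was lower by 0.30 to 0.61 in all 4, a difference of -0.48 ± 0.22 (SE; limma, adjusted p = 0.592, and 0.0251 with the block). The block call was kept without pair 2 (limma, adjusted p = 0.0357) and missed without pair 1 (0.141), pair 3 (0.168) or pair 4 (0.0698).

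Dcn, the small proteoglycan decorin, was measured at 12.09, 12.17, 12.47 and 12.27 log2 with jasplakinolide, against 12.50, 12.71, 13.00 and 12.94 log2 in control. All treated arrays lay below all control arrays, and the difference was -0.54 ± 0.12 (SE; limma, adjusted p = 0.0916, and 0.0134 with the block). The block call was missed without pair 3 (limma, adjusted p = 0.137) or pair 4 (0.0698). Tfpi2, a protease inhibitor of the matrix reported as an Adamts1 substrate, had the largest difference of the list, -0.64 ± 0.23 (SE), and did not pass (limma, adjusted p = 0.391, and 0.0651 with the block).

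Acan, the aggrecan gene, was at 11.71 ± 0.17 log2 with jasplakinolide and 11.56 ± 0.11 log2 in control (SD, n = 4 each), a difference of 0.16 ± 0.09 (SE). Comp, the substrate of Adamts7 and Adamts12, differed by 0.01 ± 0.09 and the fibronectin gene Fn1 by 0.01 ± 0.04 (SE), and neither passed. Fibrillin-1 was not analysed here.

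**Figure D4:**
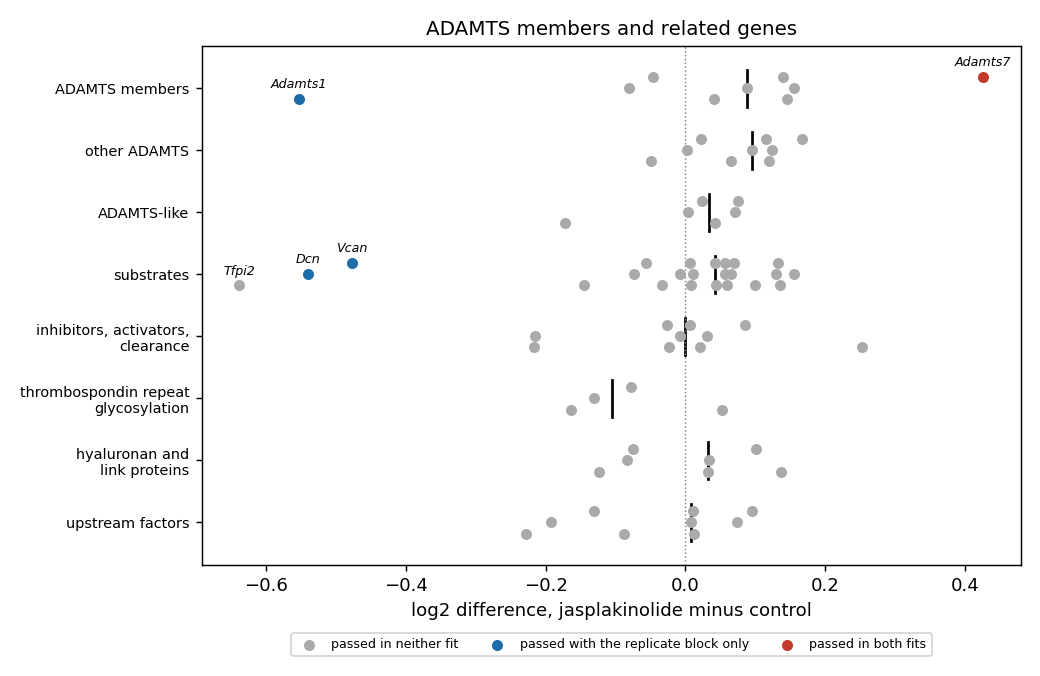
Log2 difference (jasplakinolide minus control) of each ADAMTS gene and of each gene in 7 related lists, with black lines at the list medians. Adamts7 passed in both fits, Adamts1, Dcn and Vcan passed with the replicate block only, and all other points passed in neither.

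Among 10 genes that inhibit, activate or clear ADAMTS proteases none passed in either fit, and 5 differences were below 0 and 5 above. Timp3, the main inhibitor of Adamts4 and Adamts5, was at 11.74 ± 0.20 log2 with jasplakinolide and 11.96 ± 0.12 log2 in control (SD, n = 4 each), lower in all 4 pairs and different by -0.22 ± 0.10 (SE; limma, adjusted p = 0.592, and 0.0919 with the block). Pcsk6, a proprotein convertase that removes ADAMTS prodomains, was higher in all 4 pairs and differed by 0.25 ± 0.11 (limma, adjusted p = 0.512, and 0.0634 with the block). Sdc1, a cell-surface heparan sulfate proteoglycan, differed by -0.22 ± 0.14 and Timp4 by 0.08 ± 0.12 (SE).

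None of 4 genes that glycosylate thrombospondin repeats passed in either fit. B3glct, which extends the fucose added by Pofut2, differed by -0.16 ± 0.05 (SE) with no overlap between groups (limma, adjusted p = 0.241), the mannosyltransferases Dpy19l1 and Dpy19l3 by -0.13 ± 0.07 and -0.08 ± 0.08, and Pofut2 by 0.05 ± 0.06. None of 7 hyaluronan and link protein genes passed in either fit, the largest differences being those of Has1 (0.14 ± 0.08), Has2 (-0.12 ± 0.23), Hapln1 (0.10 ± 0.08) and Tnfaip6 (-0.08 ± 0.07). Nor did any of 9 genes known to act on Adamts1 or Adamts4 in other settings, led by Nr4a2 (-0.23 ± 0.13), Sox9 (-0.19 ± 0.12), Il6 (-0.13 ± 0.18) and the progesterone receptor gene Pgr (0.10 ± 0.05).

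The genes most like Adamts1 over the 8 arrays, by Pearson's r of log2 levels among 18637 genes, were Slco2a1, a prostaglandin transporter (r = 0.993), Nmnat2, an enzyme of NAD synthesis (0.990), Zfp385a (0.981), Ppl, the periplakin gene (0.980), and Arhgap8 (0.980). The r values include the group difference, share the same 8 arrays and were picked as the highest of many, so they are a description. The choice by r over both groups also largely fixes the direction of their differences, which are therefore not given.

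Markers of the labelled cell type were present, and 8 of 12 smooth muscle markers rose (7 or 6 with any 1 array left out), against 0.436% of all genes. With the block 8 rose as well, and 4 did without pair 1, 7 without pair 2 and 5 without pair 4. Without pair 3 the count was 0, as it was over all genes. The summed signal of the 12 smooth muscle markers was 15.37 to 15.49 log2 with jasplakinolide and 14.94 to 14.95 log2 in control. The 12 endothelial markers were also above the dim level on all 8 arrays, with a summed signal of 15.31 to 15.45 log2 with jasplakinolide and 15.45 to 15.51 log2 in control. In control the endothelial sum thus lay above the smooth muscle sum. Control means of endothelial markers ran from 7.78 (Cldn5) to 13.41 log2 (Emcn). Those of smooth muscle markers ran from 8.03 (Synpo2) to 13.41 log2 (Acta2). Sums over different probe sets do not measure shares of cells. Of the 12 endothelial differences 10 were below 0 and 2 above, where 43.6% of all genes were below 0, and their median was -0.06. For 5 of the 12 the groups did not overlap and were lower, against 3.29% of all genes. Of the endothelial markers Robo4 fell (-0.41 ± 0.06, SE; limma, adjusted p = 0.0170), and with the block Kdr and Tek did too. Kdr kept its block call without pair 2 only, Tek lost it whichever pair was left out, and Robo4 missed the threshold in the fits without jasplakinolide 1, jasplakinolide 2, control 3 or control 4. Of 7 adventitial fibroblast markers 1 fell with the block, Dcn, and their summed signal was 12.31 to 12.65 log2 with jasplakinolide and 12.66 to 13.13 log2 in control. This sum is nearly all Dcn (means of 12.25 and 12.79 log2), as the next marker, Pdgfra, was at 8.07 and 8.10 log2. The median difference of the 7 markers was -0.03. For 8 macrophage markers, with sums of 11.50 to 11.58 log2 with jasplakinolide and 11.42 to 11.58 log2 in control, 4 differences were below 0 and 4 above. Cd68 fell with the block, a call lost whichever pair was left out, while Lyz2 was higher in all 4 pairs with no overlap between groups (0.17 ± 0.05, SE) and did not pass in either fit. None of 6 chondrocyte markers passed (12.47 to 12.87 log2 with jasplakinolide and 12.45 to 12.75 log2 in control). The part of these cell types in the values of Adamts1, Adamts7, Vcan and Dcn was not tested.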

How the data were processed

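The authors' deposited table holds log2 expression levels of 35556 probe sets on 8 Affymetrix arrays. It was made with RMA and Affymetrix Expression Console, as listed in the submitters' processing notes, which name no versions. The values span 2.29 to 14.2, with array medians between 7.30 and 7.39. Having 4 arrays in each group limits the precision. The platform annotation gave 1 symbol to 21789 probe sets, several to 1621 and none to 12146, and only the first kind was used. A gene was represented by its probe set with the highest mean, which gave 19938 genes, and dim probe sets were kept.

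Differences were tested with limma 3.58.1 (R 4.3.3; lmFit and eBayes, two-sided), adjusted by Benjamini-Hochberg over all genes, with a threshold of 0.05. The fit without the block was tested on simulated data with independent noise on each array. That simulation covers neither the block nor arrays that deviate together. Residual degrees of freedom were 6, and 3 with the replicate number as a block. Same-numbered arrays deviated from their group means with correlations of 0.24 to 0.56 in all 4 pairs, against -0.62 to 0.52 for other numbers, and were treated as pairs. The value of 0.52, for jasplakinolide 4 with control 2, exceeded those of pair 4 (0.44) and pair 2 (0.24). The correlations therefore do not settle the pairing. A ± after a difference is limma's SE and after a mean an SD. Scan dates were not used. Plots were made with matplotlib 3.10.9 (Python 3.11.15).

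The members and the lists were chosen with earlier results of these data known. All members are named, with up to 4 genes of each related list by size of difference, and always Vcan, Acan, Comp, Timp3 and Fn1. Predicted genes were left out of the genes most like Adamts1. Chosen after values were seen were the comparisons between pairs of members (over all splits and within pairs), the block with pairs left out, and marker genes named for passing. Alternatives were the block, the brighter 75% or 50% of genes, 3 further normalizations, a trended and robust prior, array weights, an olfactory receptor covariate, averaged probe sets, every probe set, a threshold of 0.01 and left-out arrays.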

Additional observations from a re-analysis of the deposited data

Results flagged for a closer look

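No array stood far from the other 3 of its group for any of the 9 ADAMTS genes. Over these and the related genes and markers, 232 groups of 4 arrays were checked, 9 had an array far from the others, and chance gives about 1 in 20. Control 3 was lowest for Adamts3 at 7.70 log2, with the next array at 7.89. Control 1 was lowest for Col3a1 at 8.50 log2 (next 8.75) and for Cldn5 at 7.51 log2 (next 7.85). Control 4 was lowest for Lmod1 at 8.15 log2 (next 8.23). Jasplakinolide 3 was highest for Dpy19l3 at 8.91 log2 (next 8.71), for Il6 at 8.75 log2 (next 8.28) and for Tie1 at 11.21 log2 (next 11.08). Jasplakinolide 2 was highest for Tnf at 6.87 log2 (next 6.68), and jasplakinolide 4 for Matn3 at 6.61 log2 (next 6.29).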

How the results depend on the processing

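Adamts7 kept its call in both brightness filters, after 3 further normalizations, with an intensity trend and robust prior, with array weights, with the mean of probe sets and with the replicate block. The number of ADAMTS genes called (1) was 2 with the block and without pair 2 in it. It was 0 with the olfactory receptor covariate, with every probe set and at a threshold of 0.01. It was also 0 without control 2 and jasplakinolide 4 together and without any 1 array (0 to 0). With the block it was 0 without pair 1, 3 or 4 (limma). In the main comparison 3 of the 9 genes had an unadjusted p under 0.05, as did 1769 of all 19938 genes (limma). The median difference of the 9 genes (0.09) was 0.0407 in the brighter 50%, 0.0266 with array weights, 0.0615 without control 2 and jasplakinolide 4, 0.0646 to 0.114 without 1 array, and, with the block, 0.113 without pair 1 and 0.0612 without pair 4. Signs that changed were those of small differences that did not pass: Adamts4 (-0.0908 to 0.0101 without 1 array, above 0 without control 3) and Adamts9 (-0.00316 with the covariate, -0.0395 with the mean of probe sets, -0.0118 to 0.0853 without 1 array, below 0 without control 1, and -0.00172 with the block without pair 1). Over all genes 154 were called, 87 higher and 67 lower. The count was 377 with the block, 296 in the brighter 50%, 276 after another quantile normalization, 299 after cyclic loess (137 higher and 162 lower), 358 with a trend and robust prior, 457 with array weights, 50 of every probe set, 45 at a threshold of 0.01 and 43 to 150 without 1 array. Median centring gave 69 higher and 34 lower. With the block it was 38 without pair 1, 458 without pair 2, 0 without pair 3 and 13 without pair 4 (limma; without pair 3, 1977 genes had an unadjusted p under 0.05). The block changed no call of an ADAMTS gene other than Adamts1. The causes were not tested. The number of arrays and, for Adamts15 and Adamts8, signal near the dim level limit what can be read.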
